A study of Homo sapiens with 32 samples.

Results

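The loops described here are those of the 4 HOX clusters. A chromatin loop is a pair of DNA segments, called anchors, that touch more often than their surroundings in an in situ Hi-C map, an assay that ligates DNA ends lying close together in the nucleus. A loop was taken as a HOX loop when at least 1 of its 5 kb anchors lay within 10 kb of the body of 1 of 38 HOX genes, as annotated by GENCODE release 44 on hg38. This gave 129 of the 45629 loops in 4 deposited loop lists: 35 of 15180 in wild-type control cells, 28 of 5906 in wild-type cells with sorbitol, 45 of 18966 in eGFP-YAP control cells and 21 of 5577 in eGFP-YAP cells with sorbitol. The HOXA cluster on chromosome 7 held 48 of them, HOXB on chromosome 17 held 19, HOXC on chromosome 12 held 29 and HOXD on chromosome 2 held 33. Moving the distance limit from 10 kb to 5 kb left 32, 28, 44 and 20 loops in the lists, and moving it to 15 kb gave 37, 29, 46 and 22.

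All cells are HEK293, a human embryonic kidney line (the growth protocol calls it HEK293T). The wild-type line carries no named alteration. The eGFP-YAP line carries YAP, a transcriptional co-activator of the Hippo pathway, fused to a green fluorescent protein; its promoter, and whether the line is 1 clone, are not given in the sources used here. The sorbitol groups received 200 mM sorbitol, a sugar alcohol that draws water out of cells, for 1 h, and the control groups were left untreated. The design text describes a serum starvation before sorbitol for the eGFP-YAP time course; whether it applied to the cells behind these lists is not given in the sources used here. The labels name 3 samples for each wild-type group and 4 for each eGFP-YAP group, but there is 1 loop list per group, so the values below could not be set against replicate spread and the conditions were not tested against each other. The list names carry a source that differs between the lines, so line and source cannot be told apart. The sequencing depth behind each list is unknown. All intervals are at the 95% level and reflect only the counting of loops or anchors; they treat loops as independent, which neighbouring loops are not. The lists hold no expression values, so the labelled cell line was not checked by marker genes.

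HOX genes encode homeodomain transcription factors that give cells their position along the body axis. The genes of a cluster lie in the order of their expression along that axis, with paralog group 1 at the anterior end and group 13 at the posterior end. Polycomb complexes silence the clusters in many cell types, and long-range enhancers lie in the gene-poor stretches on either side. CTCF, a zinc-finger protein that halts the loop-extruding cohesin ring, binds at several points within the clusters, and CTCF motifs at the anchors of a loop often point toward each other. The side of a cluster next to group 1 is called the anterior side below and the side next to group 13 the posterior side; HOXA and HOXB have their posterior end at the higher coordinates, HOXC and HOXD at the lower.

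Matches to the CTCF core motif (14 positions, at most 1 mismatch, both strands) are shown for the 3 HOX loops whose anchors each carried the motif on 1 strand only, pointing inward at both ends. The capitals mark the motif, and each site is printed 5′ to 3′ on the strand that carries it, from the hg38 reference. A wild-type control loop of 480 kb joined an intron of SKAP2 (chr7:26681986-26682015, plus strand) to the stretch between HOXA7 and HOXA9 (chr7:27161128-27161157, minus strand), where the motif had 0 mismatches. An eGFP-YAP control loop of 360 kb joined an intron of SKAP1 (chr17:48259874-48259903, plus strand) to an intron of HOXB7 (chr17:48618736-48618765, minus strand). The third, an eGFP-YAP control loop of 510 kb, joined an intron of HOXD-AS2 beside HOXD8 (chr2:176127197-176127226, plus strand) to an intron of LINC01117 (chr2:176638312-176638341, minus strand). A match is a run of letters and does not show that CTCF is bound there.
SKAP2 intron, partner of HOXA9: attctgagCCACTAGATGGCGTaaaaaaaa
HOXA7 to HOXA9: aacggcggCCAGCAGATGGCAGtgtggctc
SKAP1 intron, partner of HOXB7: ccaaactgCAAGTAGGTGGCAGtggagaca
HOXB7 intron: cagagcagCCGCTAGATGGCACccttgctc
HOXD-AS2 intron, beside HOXD8: gcatttggCCACTAGAGAGCGCtgttgctc
LINC01117 intron, partner of HOXD8: cagggcgtCCACTAGGGCGCGCtgagagac

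A pair of further plus-strand matches in SKAP2 introns is shown because their anchors were partners of HOXA in several lists. The match at chr7:26686536-26686565 lay in the anchor of 3 HOXA loops from 3 lists, and the match at chr7:26860544-26860573 in the anchor of 2 loops from both sorbitol lists.
SKAP2 intron, distal: aaaaatggACACTAGAGGGCACtgcagctg
SKAP2 intron, proximal: ttggtgacTCAGTAGGTGGCACtcttccct

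**Figure D1:**
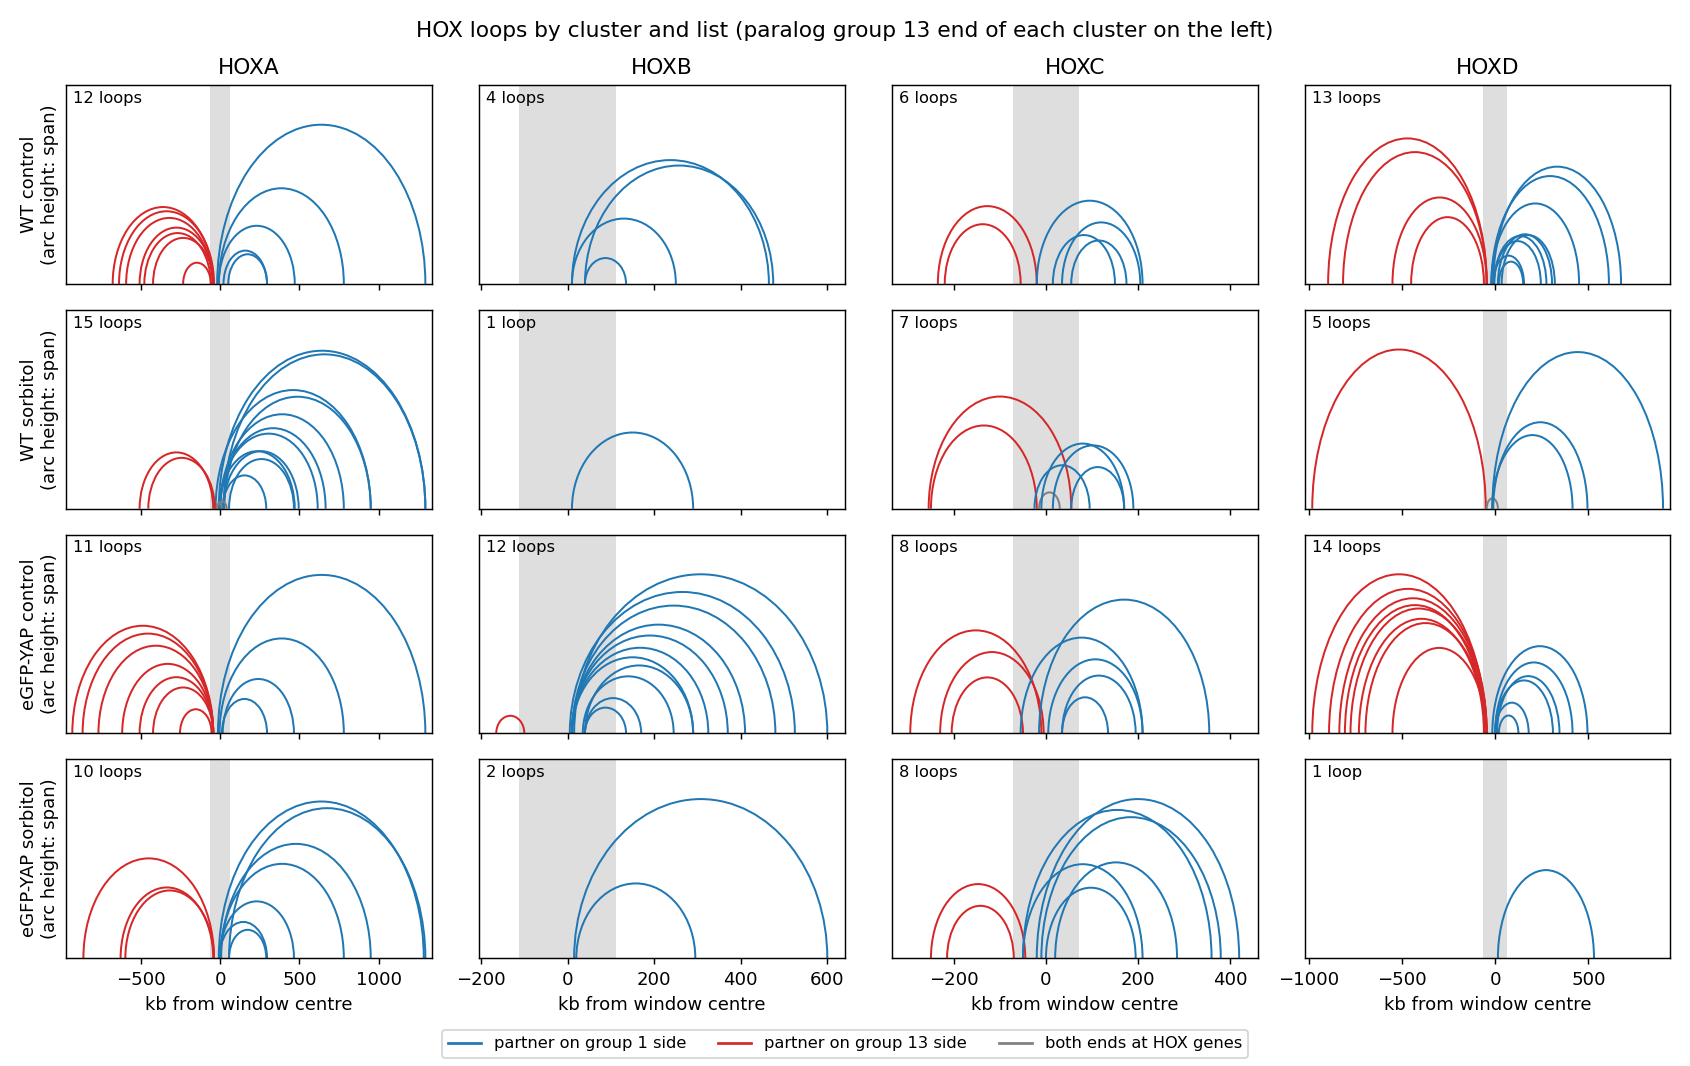
Each arc is 1 HOX loop, drawn by its distance in kb from the centre of the cluster's window (grey band), with a height in proportion to its span within each column; blue arcs run to the anterior side, red to the posterior and grey stay within the cluster; the posterior (group 13) end is on the left in every panel. The 14 posterior-side HOXA loops of the control lists and the 27 HOXD loops of the control lists stand beside 5 and 6 in the sorbitol lists, while the anterior side of HOXA holds 9 loops in the control lists and 18 in the sorbitol lists. The sorbitol lists as a whole are shorter, with 0.389 (wild type) and 0.294 (eGFP-YAP) times as many loops as the control lists.

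The first question was how many HOX loops each condition had. HOXA and HOXC had about as many loops with sorbitol as without, in lists that were much shorter with sorbitol. HOXA had 12 loops in wild-type control, 15 with sorbitol, 11 in eGFP-YAP control and 10 with sorbitol. HOXC had 6, 7, 8 and 8. HOXB had 4, 1, 12 and 2, and HOXD had 13, 5, 14 and 1, so these clusters had fewer loops in the sorbitol list of either line.

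Over all 4 clusters together, wild type had 0.8 sorbitol loops for each control loop (exact interval 0.469 to 1.35), against 0.389 (0.377 to 0.401) over all loops and 0.419 over loops within 10 kb of any protein-coding gene. In eGFP-YAP cells the HOX ratio was 0.467 (0.264 to 0.800), against 0.294 (0.285 to 0.303) over all loops and 0.315 near protein-coding genes. The wild-type HOX interval lay above the all-loop interval, and the eGFP-YAP intervals overlapped. At HOXA the ratios were 1.25 (0.546 to 2.92) and 0.909 (0.346 to 2.36), above the 0.354 and 0.225 of the rest of chromosome 7 in wild type and eGFP-YAP. Both HOXA intervals lay above those of the rest of the chromosome (0.305 to 0.409 and 0.194 to 0.260). At HOXC the ratios were 1.17 (0.336 to 4.20) and 1.0 (0.327 to 3.06), with 0.364 (0.316 to 0.418) and 0.281 (0.246 to 0.321) for the rest of chromosome 12, overlapping in wild type. HOXB had 0.250 (0.00508 to 2.53) and 0.167 (0.0181 to 0.749), with 0.452 and 0.427 for the rest of chromosome 17. The eGFP-YAP HOXD ratio was 0.0714 (0.00169 to 0.469), from 14 loops and 1, and its interval held the 0.243 of the rest of chromosome 2; the wild-type HOXD ratio was 0.385 (0.107 to 1.15), against 0.319.

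Loop ends were denser in the clusters than in the genome in every list. Counted per 100 bins of 5 kb, the windows within 10 kb of HOX genes held 31.5 ends in wild-type control, 28.8 with sorbitol, 40.5 in eGFP-YAP control and 18.9 with sorbitol, where the genome held 5.21, 2.03, 6.51 and 1.91. The excess over the genome was 9.21-fold, 33.5-fold, 6.76-fold and 20.9-fold at HOXA and 9.98-fold, 11.8-fold, 8.60-fold and 2.09-fold at HOXD. At HOXC it was 3.97-fold, 13.6-fold, 4.24-fold and 14.4-fold, and at HOXB 2.40-fold, 1.54-fold, 5.76-fold and 3.26-fold. The 2.09-fold at HOXD and the 1.54-fold at HOXB each rest on 1 loop end, and the 3.26-fold at HOXB on 2. The genome value counts all bins, whether or not they lie near genes.

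A pair of other clustered gene families also had ratios above that of all loops. Loops at the clustered protocadherin genes of chromosome 5 numbered 8 and 5 in wild type and 9 and 9 in eGFP-YAP cells, and those at the histone genes of chromosome 6 numbered 16 and 10, and 11 and 10. Their intervals (0.161 to 2.17 and 0.352 to 2.84; 0.254 to 1.46 and 0.346 to 2.36) overlapped those of HOX, so HOX could not be set apart from these families at this number of loops.

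**Figure D2:**
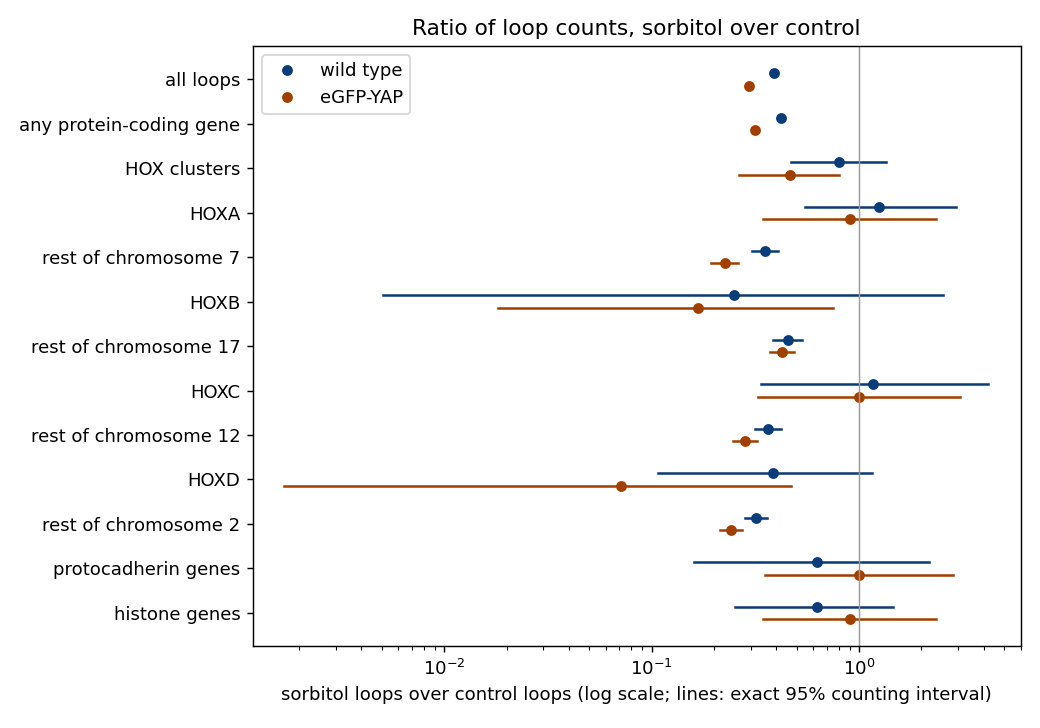
Points are the number of sorbitol loops divided by the number of control loops in the same line (log axis), and lines are exact 95% intervals for counting error; wild type is blue and eGFP-YAP brown. HOXA and HOXC lie to the right of the rest of their chromosomes (1.25 and 0.909 against 0.354 and 0.225; 1.17 and 1.0 against 0.364 and 0.281), and HOXD in eGFP-YAP cells is the lowest point at 0.0714.

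At HOXA the sides of the cluster differed in their counts. Loops to the anterior side numbered 5 in wild-type control and 11 with sorbitol, and 4 and 7 in eGFP-YAP cells. Loops to the posterior side numbered 7 and 2, and 7 and 3. The ratio was thus 2.20 (0.705 to 8.08) and 1.75 (0.445 to 8.15) on the anterior side and 0.286 (0.0290 to 1.5) and 0.429 (0.0715 to 1.88) on the posterior side. The posterior ratios were near those of all loops (0.389 and 0.294) and their intervals held them, whereas the anterior intervals lay above them. The intervals of the sides overlap, and the difference between the sides was not tested. At HOXD counts were lower with sorbitol on either side: its anterior side had 9 loops in wild-type control, 3 with sorbitol, 6 in eGFP-YAP control and 1 with sorbitol, and its posterior side 4, 1, 8 and 0. HOXC counts were even on either side, with 4, 4, 5 and 6 anterior loops and 2, 2, 3 and 2 posterior loops.

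**Figure D3:**
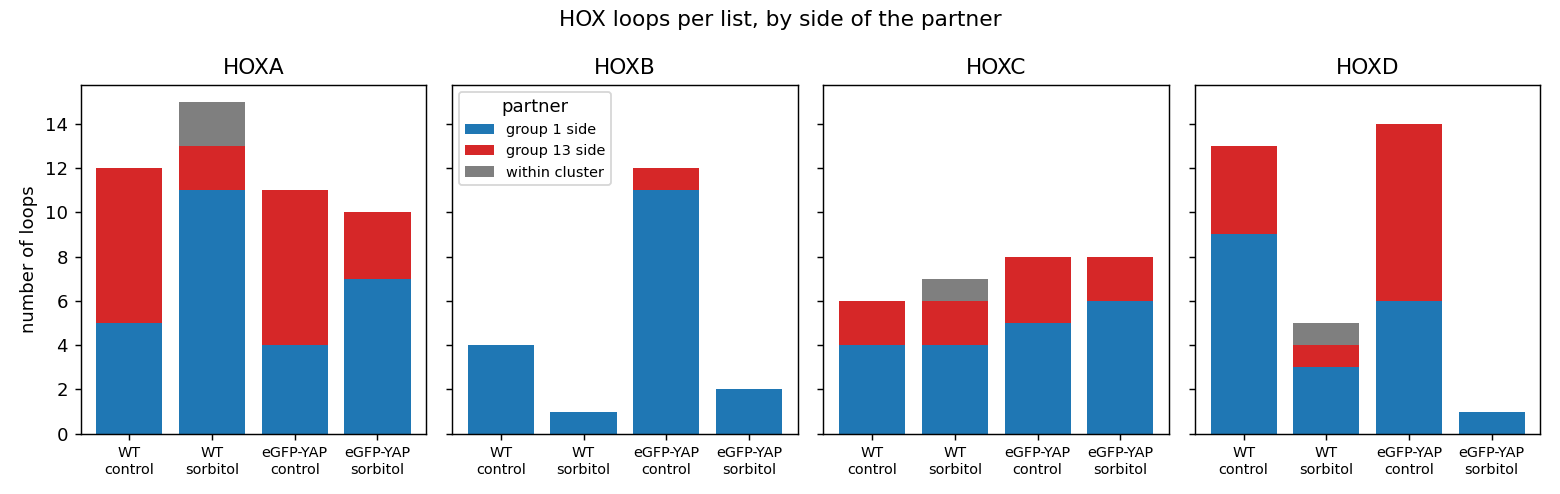
Bars give the number of HOX loops in each list, stacked by the side on which the partner anchor lies (blue anterior, red posterior, grey both anchors at HOX genes). Anterior HOXA loops number 5, 11, 4 and 7 in the order shown and posterior ones 7, 2, 7 and 3, while HOXD has 13, 5, 14 and 1 loops in all. For all loops the ratio of sorbitol to control is 0.389 in wild type and 0.294 in eGFP-YAP cells.

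Anterior and posterior partners were joined to separate parts of the HOXA and HOXD clusters. All 27 anterior-side HOXA loops had their HOX anchor between 27095001 and 27185000, from HOTAIRM1 to HOXA11, and all 19 posterior-side loops had it between 27185001 and 27215000, at HOXA11, HOXA13 and HOTTIP. In HOXD the 13 posterior-side loops started between 176080001 and 176100000, at EVX2, HOXD13 and HOXD12, and the 19 anterior-side loops between 176120001 and 176180000, from HOXD9 to HAGLR. The stretch between held HOXD11 and HOXD10, and no loop in any list had an anchor in the body of either gene. Neither cluster had an overlap when the distance limit was set to 25 kb, which added loops. A limit of 0 kb and a cut to the upper 50% by peak score left fewer loops. The lack of overlap at those settings was therefore not a further check. In eGFP-YAP sorbitol HOXD had 1 anterior-side and 0 posterior-side loops, so its sides could not be compared there.

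HOXC was different in layout. Its 19 anterior-side loops started between 53940001 and 54055000 and its 9 posterior-side loops between 53925001 and 54055000. Both kinds were interspersed from HOXC13 to HOXC9. Beyond that, the only posterior-side loop was a wild-type sorbitol loop starting at 54050001, at HOXC4. The anchors of the other posterior-side loops ended at or before 53995000. HOXB loops went almost entirely to the anterior side, 18 of 19, from anchors between 48585001 and 48625000. The exception joined HOXB13 to an anchor over a coding exon of TTLL6, a tubulin polyglutamylase gene, over 65 kb in eGFP-YAP control, with a peak score at the 9.83 percentile of its list.

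**Figure D4:**
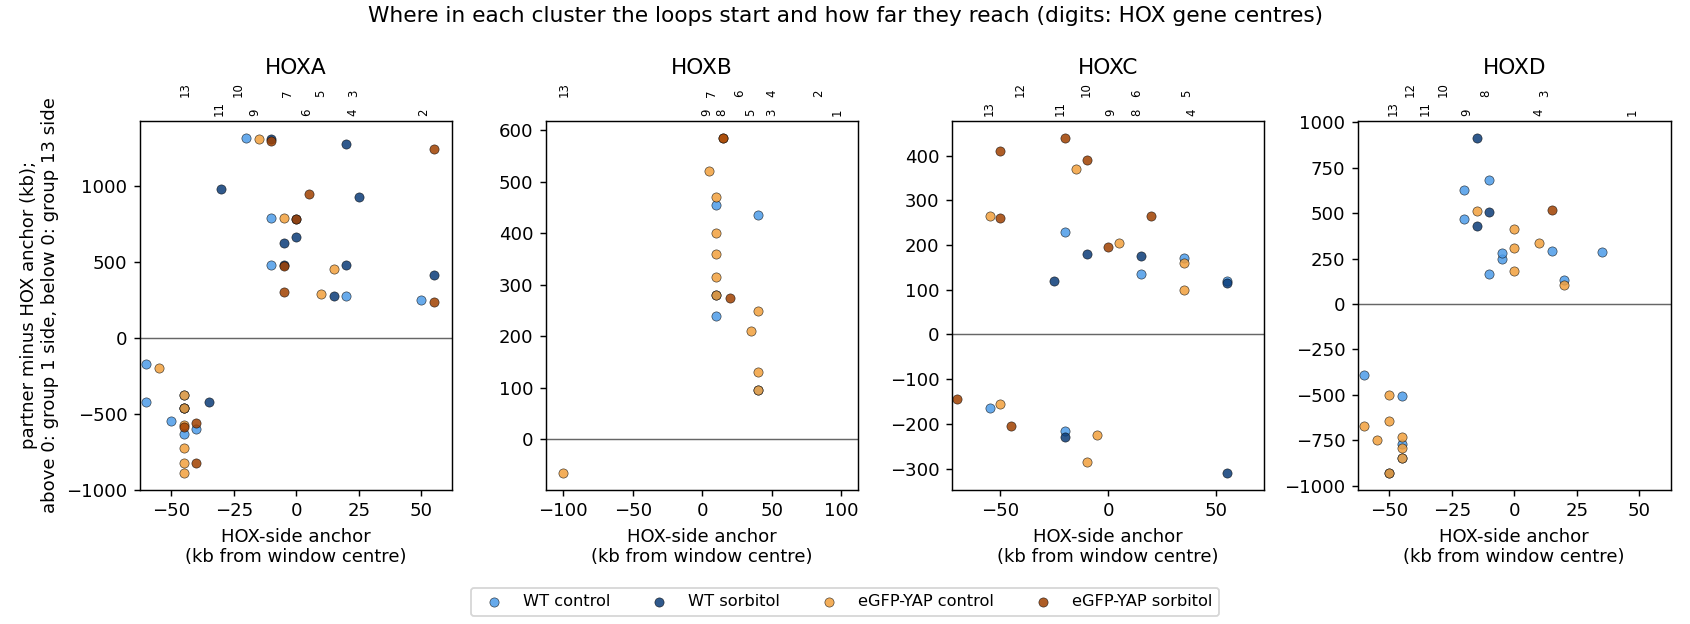
Each point is 1 HOX loop that leaves its cluster: the horizontal axis is its HOX-side anchor in kb from the window centre (posterior end on the left, digits above mark the centres of the HOX genes) and the vertical axis the signed distance to its partner in kb, colours marking the list. In HOXA and HOXD the points below 0 (19 and 13 posterior-side loops) lie to the left of all points above 0 (27 and 19), while in HOXC the 9 and 19 points overlap along the axis.

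Loops with both anchors at HOX genes numbered 4, all in the wild-type sorbitol list. They joined an anchor in HOXA3 to the HOXA9 and HOXA10 anchor over 60 kb, HOXA5 to HOXA10 and HOXA11 over 40 kb, HOXC-AS3 to HOXC6 and HOXC4 over 45 kb, and HOXD13 and HOXD12 to HOXD3 over 60 kb. The shortest loop in every list was 35 kb, so contacts between neighbouring HOX genes below that distance were outside what the lists hold.

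Among the genes themselves, HOXA3, a group 3 gene whose annotated body spans much of the anterior cluster, had the most loops within 10 kb, 26 over the 4 lists. Its counts were 4 in wild-type control, 12 with sorbitol, 3 in eGFP-YAP control and 7 with sorbitol, higher with sorbitol in either line. HOXA13, a limb and genital tract gene at the posterior end, had 21, with 7, 4, 7 and 3, in lists whose total length with sorbitol was 0.389 and 0.294 of that in control. HOXD3 had 18, with 7, 4, 6 and 1, and HOXD13, the gene of synpolydactyly, had 14, with 4, 2, 8 and 0. HOXB7 and HOXB8 had 12 each, both with 2 in wild-type control, 1 with sorbitol, 7 in eGFP-YAP control and 2 with sorbitol. In HOXC, HOXC6 led with 14 loops, with 2, 3, 6 and 3. HOXB1 and HOXB2, at the anterior end of their cluster, had 0 loops in every list, and HOXD1 and HOXB13 had 1 each. Neighbouring genes lie so close that 1 anchor often counts for several of them.

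Single anchors carried many of the loops. The anchor at chr7:27195001-27200000, which holds coding exons of HOXA13 and the start of HOTTIP, a noncoding RNA made from the tip of the cluster, had 11 loops leaving the cluster: 3 in wild-type control, 1 with sorbitol, 6 in eGFP-YAP control and 1 with sorbitol. It held no CTCF motif match. The anchor at chr17:48615001-48620000, in HOXB7 and HOXB8 and with the HOXB7 site printed above, had 8 loops, 2, 1, 5 and 0 in the same order. At chr2:176095001-176100000, over the end of HOXD13 and the start of HOXD12, 6 loops left the cluster, 3 in each control list and none in the sorbitol lists. An anchor in an intron of HOXB3 at chr17:48585001-48590000 had 5 loops, 2 and 3 in the control lists and none with sorbitol. The HOXA7 anchor at chr7:27155001-27160000 had 0, 2, 1 and 2 loops. Over all loops the sorbitol lists held 0.389 (wild type) and 0.294 (eGFP-YAP) times as many loops as the control lists. These anchors were named after their counts were seen, and the differences between lists at single anchors were not tested.

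Most partner anchors had no protein-coding gene start within 10 kb. The same share over all loop anchors is not available here, so this cannot be called particular to HOX partners. Of the 125 loops that left a cluster, 20 (16.0%) had a protein-coding gene start within 10 kb of the partner anchor. Another 50 (40%) had a partner inside a protein-coding gene body and 55 (44%) a partner outside protein-coding genes. HOXA and HOXB partners lay chiefly in protein-coding gene bodies (60.9% and 68.4%). HOXD partners lay chiefly outside protein-coding genes (81.2%), as far as 458 kb from the nearest protein-coding start. Many of these HOXD partners lay over annotated noncoding genes such as LINC01117. Of 42 flanking genes chosen for the 4 clusters, 20 had at least 1 HOX loop, and 8, 8, 15 and 13 had one in the 4 lists in the order above. SKAP2 and SKAP1, paralogous adaptor proteins of Src-family kinase signalling that flank HOXA and HOXB, had 12 loops each. SKAP2 had 3 in wild-type control, 4 with sorbitol, 2 in eGFP-YAP control and 3 with sorbitol. SKAP1 had 3, 1, 7 and 1. Over the rest of chromosome 17 the sorbitol lists held 0.452 and 0.427 times as many loops as the control lists.

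On the anterior side of HOXA, 27 loops ran to 11 partner bins. The outermost, at chr7:25855001-25860000 and chr7:25865001-25870000, whose nearest protein-coding start is that of the transcription factor gene NFE2L3 at 292198 and 282198 bases, together had HOX loops in every list (1, 2, 1 and 2). The next partner inward held the starts of HNRNPA2B1, an RNA-binding protein gene, and CBX3, which encodes the heterochromatin protein HP1 gamma, at chr7:26200001-26205000. It had 0 HOX loops in wild-type control, 2 with sorbitol, 0 in eGFP-YAP control and 1 with sorbitol. The sorbitol loops ran over 925, 980 and 945 kb to anchors at HOXA4, HOXA11 and HOXA6, with peak scores at the 98.7, 99.7 and 99.7 percentiles. None of these 3 loops was matched in another list. Among all sorbitol loops, 79.9% in wild type and 68.4% in eGFP-YAP cells had no control loop. Within 10 kb of the HNRNPA2B1 and CBX3 bin the lists held 0, 5, 3 and 3 loops of any kind. The 3 of eGFP-YAP control, at the 54.3 percentile or lower, spanned 110 to 315 kb and reached no HOX gene. Both sorbitol lists also joined this promoter pair to the distal bin near 25855001, over 345 kb (99.4 percentile) and 340 kb (97.1 percentile).

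Of the paralogs of these genes beside other clusters, CBX5, HNRNPA1 and CBX1 had 1 HOX loop each. HNRNPA3, on the HOXD side, had 0 in every list. CBX5, for HP1 alpha, and HNRNPA1 start together at chr12:54280001-54285000, which was joined to HOXC4 and HOXC6 over 265 kb in eGFP-YAP sorbitol, at the 41.2 percentile. CBX1, for HP1 beta, and SNX11 start at chr17:48100001-48105000, which was joined to HOXB7 and HOXB9 over 520 kb in eGFP-YAP control, at the 40.6 percentile. Neither loop was matched in another list.

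On the posterior side of HOXA, partners lay in HIBADH, a mitochondrial enzyme gene of valine breakdown (3, 2, 2 and 0 loops), in the autophagy receptor gene TAX1BP1 (3, 0, 1 and 2) and in the zinc-finger gene JAZF1 (1, 0, 3 and 1). EVX1, the homeobox gene next to HOXA13, had none. On the anterior side of HOXC, SMUG1, a uracil-DNA glycosylase gene, had 2, 3, 2 and 1 loops with a partner within 10 kb of its body. The stretch at chr12:54185001-54210000, at the start of SMUG1 and beyond it, held partners of 8 HOXC loops: 2, 1, 3 and 2. Some of these are also in the SMUG1 counts, and their HOX anchors lay between 53940001 and 54035000. On the anterior side of HOXD, MTX2, a gene of mitochondrial protein import, had 2, 0, 2 and 0. Of 17 noncoding genes within the clusters, 14 had an anchor over their body, but at HOXB only 1 of 4 did. Of the 111 bins of the cluster windows, 56 were an anchor in at least 1 list, so such an overlap is easily met. HOXA-AS3, in the anterior part of HOXA, had 1 loop in wild-type control, 9 with sorbitol, 3 in eGFP-YAP control and 4 with sorbitol; HOTTIP had 4, 1, 7 and 1, and HOXD-AS2 6, 3, 1 and 0.

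The second question was whether the same loops came back. A loop counted as called again if the second list had a loop with each anchor centre no more than 10 kb away. In wild type, 6 of 35 control HOX loops (17.1%, Wilson interval 8.10 to 32.7) were called again with sorbitol, against 7.81% of all control loops and 8.33% of those within 10 kb of a protein-coding gene. In eGFP-YAP cells 7 of 45 were (15.6%, 7.75 to 28.8), against 9.28% and 9.54%. The wild-type interval held the second background and began just above the first, and the eGFP-YAP interval held both. HOXA supplied 5 of 12 and 4 of 11, HOXB 0 of 4 and 2 of 12, HOXC 1 of 6 and 1 of 8, and HOXD 0 of 13 and 0 of 14.

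None of the 27 HOXD control loops was called again in its own line, whether identical bins were required or the matching distance was 10 or 25 kb. With 0 of 13 and 0 of 14, the Wilson intervals reached up to 22.8% and 21.5% and so held the backgrounds of 7.81% and 9.28% at 10 kb. No background at the other matching settings is available here. Of the upper 10% of loops by score, 0 of 3 HOXD loops in each control list were called again, where 4 of 5 and 3 of 5 HOXA loops were, with backgrounds of 23.9% and 29.4%. Long loops of HOXD, those of at least 500 kb, were called again in 0 of 5 and 0 of 9 cases and those of HOXA in 2 of 5 and 4 of 6, with backgrounds of 5.21% and 9.37%.

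The ends of the control loops were then looked at separately. For HOXD the HOX end of 10 of 13 wild-type loops was still the HOX end of some sorbitol loop, and so was that of 2 of 14 in eGFP-YAP cells. All HOXD HOX ends lie in a window of 125 kb, so such a match is easily met, and no background is available for it. HOXD partner ends lay within 10 kb of an end of any sorbitol loop in 0 of 13 and 1 of 14 cases, against 28.3% and 30.4% of all control loop ends. HOXA partner ends did so in 7 of 12 and 8 of 11, and HOXC partner ends in 5 of 6 and 7 of 8. HOXB had 0 of 4 and 4 of 12. The background pools both ends of all control loops, whereas HOXD partners lay chiefly outside protein-coding genes. No background limited to such ends is available here. The HOXD partner segments, in the gene-poor stretches between ATF2 and the cluster and from MTX2 outward, thus had almost no loop ends in the sorbitol list of the same line, whereas most HOXA and HOXC partner segments had one. Some eGFP-YAP control partners, at ATF2 and in LINC01117, did have HOXD loops in the wild-type sorbitol list.

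Of the sorbitol HOX loops, 22 of 28 in wild type (78.6%) and 14 of 21 in eGFP-YAP cells (66.7%) had no control loop, close to the 79.9% and 68.4% of all sorbitol loops and the 80.2% and 69.5% of those near protein-coding genes. Between the control lists, 10 of 35 wild-type HOX loops (28.6%, 16.3 to 45.1) and 10 of 45 eGFP-YAP HOX loops (22.2%, 12.5 to 36.3) were matched in the other line, where the shares over all loops, 40.2% and 32.2%, and near protein-coding genes, 42.6% and 33.1%, lay inside the intervals. Between the sorbitol lists, 4 of 28 (14.3%) and 4 of 21 (19.0%) were matched, against 24.2% and 25.7% of all loops.

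Joining matched loops gave 99 distinct HOX loops, of which 78 were in 1 list, 14 in 2 lists, 5 in 3 and 2 in all 4. Each list thus had 2 loops matched in all other lists, with backgrounds of 2.71% in wild-type control, 6.47% with sorbitol, 2.14% in eGFP-YAP control and 7.32% with sorbitol. No HOX loop was in both sorbitol lists and neither control list, while 6 were in both control lists and neither sorbitol list, 3 of them at HOXD and 1 at each other cluster. Per loop, the share matched in the other control list and in neither sorbitol list was 6 of 35 in wild-type control (17.1%, 8.10 to 32.7) and 6 of 45 in eGFP-YAP control (13.3%, 6.26 to 26.2), against 31.1% and 24.7% of all control loops, inside both intervals. The reverse pattern was found in 0 of 28 wild-type (Wilson upper bound 12.1%) and 0 of 21 eGFP-YAP (15.5%) sorbitol loops, against 12.6% and 13.1% of all sorbitol loops. HOXA had 4 of the 5 loops found in 3 lists and both loops found in all 4. A loop from HOXA13 into TAX1BP1 is among those 4 only because its control loops, 575 and 600 kb long, each matched the eGFP-YAP sorbitol loop; they did not match each other.

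The loop with the highest mean score of these joined the bin at 25855001 (to 25870000 in eGFP-YAP sorbitol) to HOXA9 and HOXA10, between 27160001 and 27175000. It spanned 1315, 1305, 1310 and 1295 kb, with scores at the 99.4, 99.5, 97.7 and 99.8 percentiles, and was the longest HOX loop. The other loop in all 4 lists joined the end of the body of SNX10, a sorting nexin gene, at chr7:26370001-26375000, to HOXA7 and HOXA9. It spanned 790, 780, 785 and 780 kb, at the 99.5, 97.8, 98.9 and 96.1 percentiles. Its partner bin was identical in all 4 lists, and its HOX end lay nearer HOXA6 with sorbitol by 10 kb in wild type and by 5 kb, 1 bin, in eGFP-YAP cells, which is within the matching distance.

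The other recurrent loops that ranked highest by mean percentile in their cluster were, at HOXA, a loop from SKAP2 (26855001 to 26865000) to HOXA3, HOXA4 and HOXA5 in 3 lists, over 275 to 285 kb at a mean percentile of 97.4, and a loop of HOXA13 to JAZF1 in both eGFP-YAP lists, over 825 kb at 90.1. At HOXB they were a loop from HOXB7 and HOXB8 to COPZ2, a coat-protein subunit gene, over 585 kb in both eGFP-YAP lists (78.6), which was the longest of its cluster, and a 95 kb loop in both control lists from HOXB3 to the stretch between SKAP1 and HOXB1 (74.1). HOXC had a loop from HOXC5 to beside the start of SMUG1 in both control lists (91.7) and a loop from HOXC4 into SMUG1 in both wild-type lists (41.6, from 6.01 and 77.2). HOXD had the HOXD8 loop to LINC01117 in wild-type sorbitol and eGFP-YAP control (96.5), and a loop from HOXD13 to chr2:175590001-175595000 in both control lists (91.4). The longest HOXC loop, 440 kb, ran from HOXC11 to the start of ITGA5, an integrin subunit gene, in eGFP-YAP sorbitol. The longest HOXD loop, 930 kb, ran from HOXD13 to beside the start of ATF2, a transcription factor gene, in wild-type sorbitol and eGFP-YAP control.

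Taken over all 4 clusters, HOX loops had higher median spans and score ranks than the loops of their lists in general. The median span was 380 kb in wild-type control (interval 245 to 470), 425 kb with sorbitol (230 to 620), 380 kb in eGFP-YAP control (285 to 510) and 440 kb with sorbitol (265 to 585). Over all loops the medians were 240, 215, 260 and 230 kb, below the lower bound of every HOX interval. With a gene distance of 0 kb or 25 kb the lower bound in wild-type sorbitol was 180 kb, below the median over all loops, and with 0 kb that in wild-type control was 240 kb, equal to it. By cluster, HOXA medians were 472.5, 475, 575 and 682.5 kb and HOXC medians 167.5, 175, 215 and 262.5 kb, the first 3 of these below the medians of their lists. HOXD medians were 390, 505, 577.5 and 515 kb, the last from 1 loop, and HOXB medians were 337.5, 280, 297.5 and 430 kb, the sorbitol values from 1 and 2 loops.

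The peak score comes from the loop caller on a scale that is not stated, so it is given as a percentile within its list. Median percentiles of HOX loops were 75.4, 77, 71.5 and 69.7 in the 4 lists, above the middle of the list in each. The high scores lay on the anterior side of HOXA, where 21 of 27 loops were in the upper 10% of their list: 5 of 5 in wild-type control, 8 of 11 with sorbitol, 4 of 4 in eGFP-YAP control and 4 of 7 with sorbitol. Among all loops of the same span range (235 to 1315 kb) the share in the upper 10% was 12.0%, 14.3%, 11.8% and 14.7%. Other groups had fewer: 2 of 19 posterior HOXA loops, 0 of 18 anterior HOXB loops, 3 of 19 anterior and 0 of 9 posterior HOXC loops, and 4 of 19 anterior and 3 of 13 posterior HOXD loops.

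**Figure D5:**
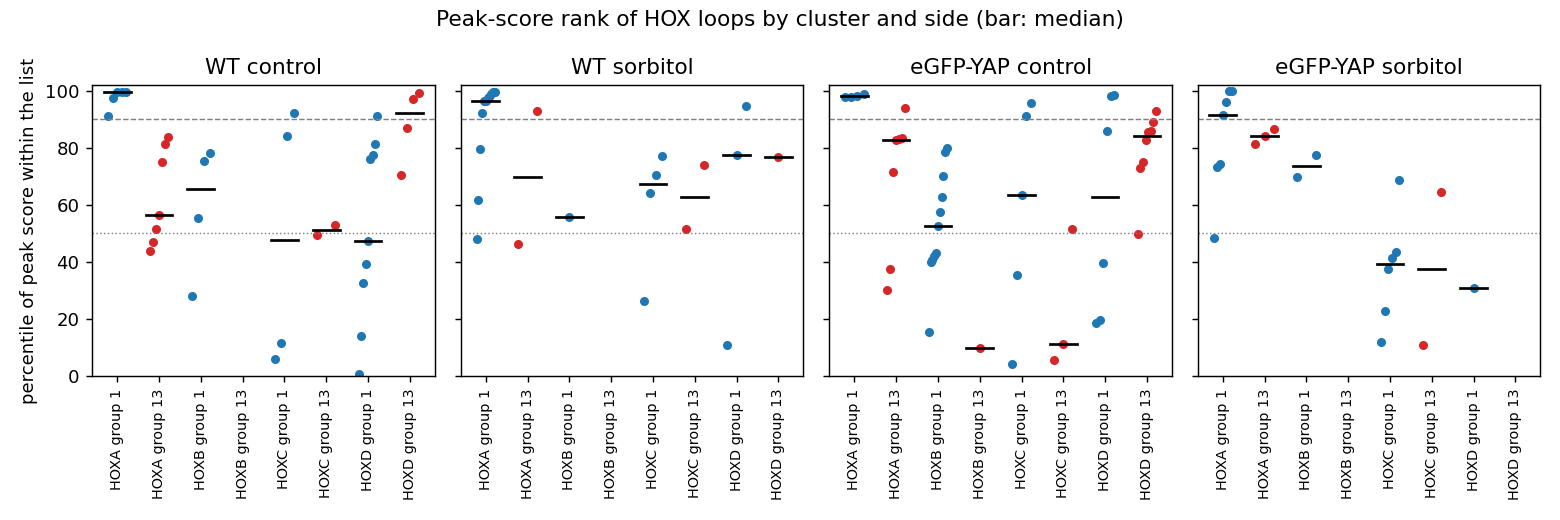
Points are HOX loops, placed by the percentile of their peak score within their own list (vertical axis) and grouped by cluster and side (horizontal axis); bars are medians, the dashed line marks the upper 10% and the dotted line the middle of each list. Anterior HOXA loops lie above the dashed line in 5 of 5, 8 of 11, 4 of 4 and 4 of 7 cases, and the single HOXD loop of the last panel lies at the 30.8 percentile.

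Anchors in the HOX clusters were richer in G and C than other anchors. Their share with a CTCF motif could not be told apart from that of all anchors. Their median GC content was 52.5%, 52.4%, 52.6% and 54.4% in the 4 lists, against 42.3%, 45.9%, 42.3% and 46.2% over all anchors, while the partner anchors of HOX loops had 39.9%, 42.4%, 41.7% and 44.2%. The bins of the clusters as a whole had 51.3%. A motif match was present in 4 of 23 HOX anchors of wild-type control (17.4%, Wilson interval 6.98 to 37.1), 8 of 26 with sorbitol (30.8%, 16.5 to 49.99), 5 of 27 in eGFP-YAP control (18.5%, 8.18 to 36.7) and 3 of 17 with sorbitol (17.6%, 6.19 to 41.0). The shares over all anchors, 23.2%, 20.9%, 30.1% and 27.7%, lay inside these intervals, and 8.69% of all 5 kb bins of the genome held a match. Within the clusters 11 of 56 bins that served as an anchor held one (19.6%, 11.3 to 31.8), as did 4 of 55 that did not (7.27%, 2.86 to 17.3), with overlapping intervals. Only 1, 0, 4 and 1 HOX loops could be scored for motif orientation. The motifs pointed toward each other in 1 of 1 in wild-type control, 2 of 4 in eGFP-YAP control and 0 of 1 with sorbitol in eGFP-YAP cells, too few to compare between conditions.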

How the data were processed

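Members and gene lists were chosen with earlier results of these data known. Loops were found in in situ Hi-C maps (MboI digestion) with the SIP caller, per the file headers; its version and settings, the map normalization and how replicates were combined are not given in the sources used here. The submitters' processing notes name hg38, and all anchors lay within its chromosomes. The deposited peak score of each loop was used for ranks within a list. The caller's contact value, also a deposited score, was left aside, as was any filter on the enrichment probability, a deposited fraction. The 4 loops deposited with anchors in reverse order were sorted. Matching, annotation (GENCODE release 44, 19970 protein-coding genes) and the motif search used Python 3.11.15, pandas 2.3.3 and scipy 1.17.1, and matching was tested on simulated loops. Named loops were those in all 4 lists, those in both sorbitol lists and neither control list, per cluster the 2 other recurrent loops of highest mean percentile, and the longest; recurrent means 2 or more lists. Flanking and noncoding genes came from lists, and the anchors and partners with most loops were named after their values were seen. Shares have Wilson intervals, ratios exact (Clopper-Pearson) intervals and medians order-statistic intervals. Alternatives were the matching distance, the gene distance, merged loops, the upper 50% by score, the motif mismatches and widened anchors. The other 18 of 32 samples were not analysed here.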

Additional observations from a re-analysis of the deposited data

Results flagged for a closer look

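Some values had opposite signs in the lines. These differences were not tested, and each rests on 1 list per condition. The HOXA loop count with sorbitol over control was 1.25 for wild type but 0.909 for eGFP-YAP. For median score percentiles, sorbitol minus control was 1.55 and -1.77 over all HOX loops, -9.59 and 25.7 at HOXB, 12.9 and -4.14 at HOXC, and 0.782 and -53.3 at HOXD, in wild type and eGFP-YAP. The median span, sorbitol minus control, was -57.5 kb and 132.5 kb at HOXB, and 115 kb and -62.5 kb at HOXD. The HOXB values rest on 1 and 2 sorbitol loops and the HOXD value of eGFP-YAP on 1 loop.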

How the results depend on the processing

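No paired analysis was possible because each condition has 1 loop list, which carries no replicate number. Under the main alternatives 108 values were classed as the same as the reported one and 20 as moved. Under those added after seeing the data 32 were classed as the same and 4 as moved, and none of these reversed. Values classed as the same could still differ, as did the HOX loop count of wild-type control, 35 as reported and 24 in the upper 50% by score. Requiring identical 5 kb bins lowered the share of control HOX loops called again to 2.86% (wild type) and 2.22% (eGFP-YAP), raised the share of sorbitol loops without a control loop to 96.4% and 95.2%, and lowered the match to the other line's control list to 8.57% and 6.67%. With a matching distance of 25 kb the last became 74.3% and 55.6%. In eGFP-YAP cells 31.1% of control loops were then called again and 38.1% of sorbitol loops had no control loop. In wild type the corresponding shares were 28.6% and 64.3%, which were classed as the same as at 10 kb. No share over all loops at these matching settings is available here for comparison. In the upper 50% of each list by score, eGFP-YAP held 29 control and 13 sorbitol HOX loops. The settings for single clusters were chosen after seeing the data: in that upper 50%, HOXD held 8 loops in wild-type control, 3 with sorbitol and 0 with sorbitol in eGFP-YAP, and the posterior side of HOXA 1 loop in wild-type sorbitol. With no mismatch allowed, a motif was found in 4.35%, 3.85%, 0% and 5.88% of HOX anchors in the lists in the order of the report, and with anchors widened by 5 kb in 43.5%, 61.5%, 44.4% and 64.7%. These motif shares are given without the share over all anchors at the same setting. The number of loops, 1 to 15 per cluster and list, limits every comparison by cluster, and depth is unknown.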
